A study of Mus musculus with 3 samples.

Results

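Male gonads that lacked Cyp26b1 were compared with wild-type male gonads of the same stage, embryonic day 14.5 of the mouse, across every gene that the arrays could measure. The knockout gonads had the genotype Cyp26b1-/-/Stra8+/+ and the wild-type gonads Cyp26b1+/+/Stra8+/+, and both came from a line labelled MCH. Each genotype was measured on 2 arrays of total RNA, which the series describes as biological duplicates. The sources used here do not say whether an array held the RNA of 1 embryo or of several, nor which part of Cyp26b1 was removed. These were 4 of the 6 arrays of the series, chosen by their labels. The other 2 came from gonads without both genes (Cyp26b1-/-/Stra8-/-, the double knockout). They entered the fit to share its estimate of the spread, and their values stand beside some genes below. Of 41149 probes on the arrays, 1 was kept for each of 21504 transcripts that were well above background on both arrays of the knockout, of wild type or of both. These transcripts comprised 13269 genes with a symbol and 8235 that could not be named.

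Retinoic acid is made from vitamin A by retinal dehydrogenases and acts through nuclear receptors, the RARs and RXRs, which bind DNA at paired half-sites. CYP26 enzymes oxidise it to inactive products. In the fetal testis Cyp26b1 is known as the enzyme that keeps retinoic acid low, while in the fetal ovary retinoic acid reaches the germ cells, Stra8 comes on and the cells enter meiosis. Male germ cells instead stop dividing, take up a program that includes Nanos2 and Dnmt3l, and start to silence transposons through piRNAs and DNA methylation.

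Levels are log2 signals scaled to the 75th percentile of each array, so that 0 is a probe as bright as the upper quartile and each step of 1 is a factor of 2. A change is the mean of the knockout arrays minus the mean of the wild-type arrays on this scale, with its standard error (SE) from limma, n = 2 arrays per genotype. A transcript is called higher or lower where its limma p-value, adjusted by Benjamini-Hochberg over all 21504, was below 0.05, and "rose" and "fell" are used of such calls. By this rule 4597 transcripts rose (21.4% of those tested) and 6441 fell (30%). Called transcripts were thus the common case, and a count of genes in a list is read below against these shares. Scaled as in the authors' deposited value table, 51.7% of the called transcripts were higher, against 41.6% here. At 2-fold or more 1496 rose (6.96%) and 1998 fell (9.29%), of which 1073 and 1548 were well above background on all 4 arrays. At 8-fold or more 42 rose and 126 fell, with 14 and 44 so measured. With normexp, another background correction that models each spot as signal plus background, fitted on all spots, limma called 1621 higher and 1973 lower. The spread was estimated anew in that fit, so its counts differ by more than the background correction. Counts of a list are given again without 1 array, or with this normexp, where they move by over 1.5 times and by at least 2 genes.

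The arrays of a genotype were close to each other, with a Pearson r of 0.994 to 0.996 across 18971 transcripts well above background on all 6 arrays. The SD of the difference between duplicate arrays was 0.243 in wild type and 0.298 in the knockout, against an SD of 0.718 for the difference between the means of these genotypes. Each genotype lay on a slide of its own, and the knockout slide was scanned on another day than the other slides, so genotype, slide and scan day cannot be told apart. Wild type and the double knockout, scanned on the same day, differed in 12.9% of transcripts tested, and the knockout and the double knockout in 44%. Spike-in control RNAs, added in known amounts, had a median change of 0.01 over 8 bright controls and ranged from -0.17 to 0.61, while duplicate wild-type arrays differed by up to 0.93 on them. The p-values measure the spread between these arrays.

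Genes with several probes showed how far a change depended on the probe. For 4031 genes with at least 2 probes well above background on all 6 arrays, the brightest probe had a median change of -0.11 and the next brightest a median change of 0.17. Across these genes the changes of the brightest and next brightest probe had a Pearson r of 0.48, and 63.9% shared their sign. Where the brightest probe changed 2-fold or more, the next one had the same sign in 304 of 382 genes (79.6%). In the double knockout against wild type the same medians were 0.04 and -0.01, the r was 0.65, and 45 of 47 genes (95.7%) shared their sign at 2-fold or more. Genes are not independent replicates, and the part of the slide, the scan and the genotype in this difference between probes was not tested. Where another probe of a gene named as called went the other way, its value is given with the gene.

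**Figure D1:**
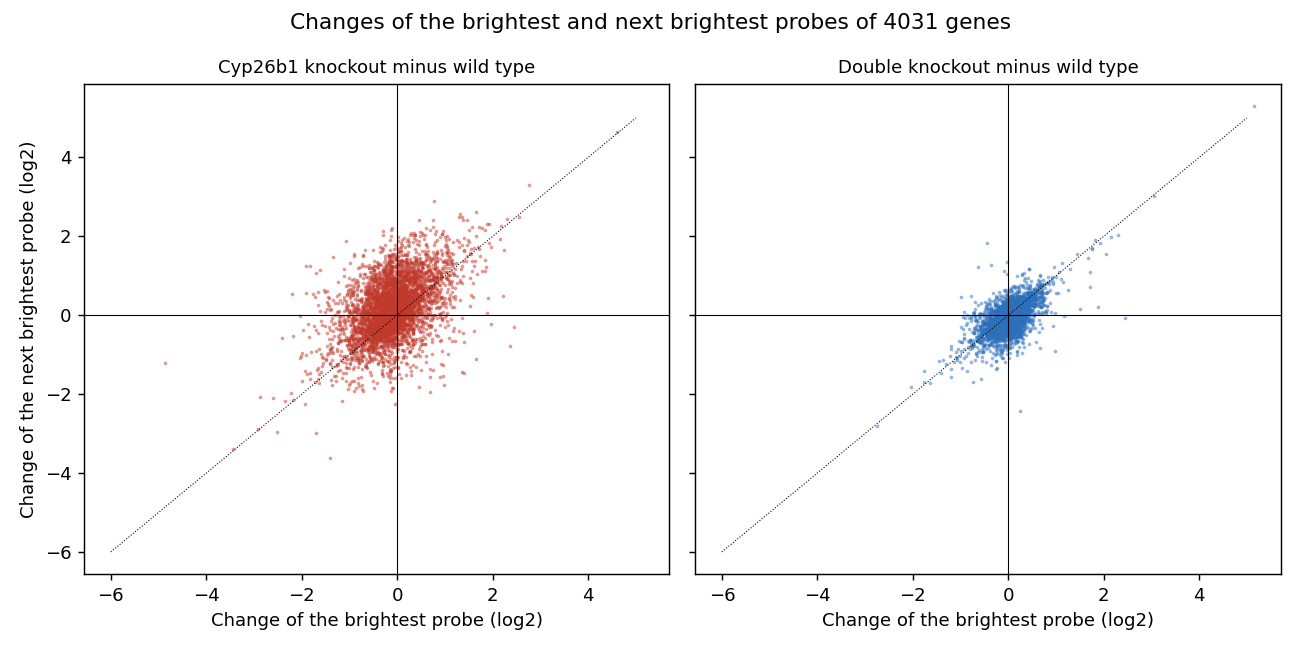
Changes (log2) of the brightest probe (horizontal axis) and the next brightest probe (vertical axis) of 4031 genes, for Cyp26b1 knockout minus wild type (left) and double knockout minus wild type (right); each point is a gene and the dotted line marks equal change. Points scatter more widely around the line on the left (r 0.48) than on the right (r 0.65).

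The scatter of all named genes against signal level places these calls. The share called higher was 17.7% in the dimmest 20% of transcripts, 27.3% in the middle 20% and 14.9% in the brightest 20%. The share called lower grew with brightness, from 21.9% in the dimmest 20% to 36.2% in the brightest. Changes of 2-fold or more went the other way, from 12.5% higher and 17.1% lower in the dimmest 20% to 1.77% and 2.63% in the brightest.

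**Figure D2:**
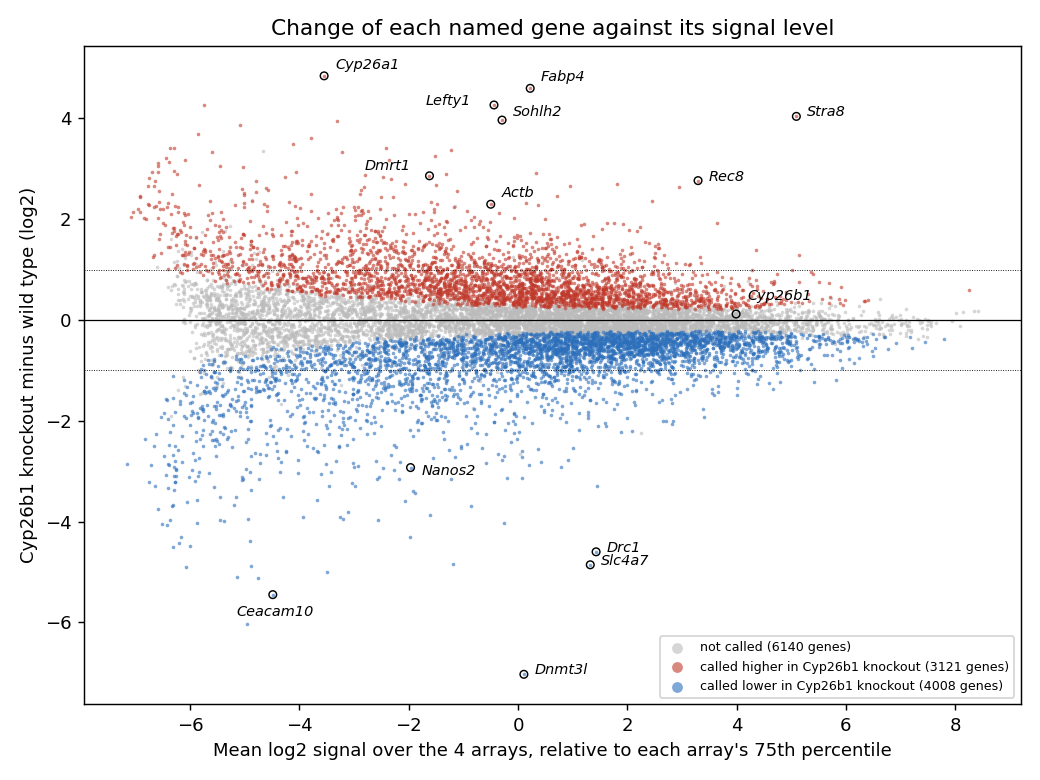
Change of each of 13269 named genes (Cyp26b1 knockout minus wild type, log2, vertical axis) against its mean log2 signal over the 4 arrays after scaling (horizontal axis), coloured by call; dotted lines mark 2-fold. Stra8 stands out among bright genes that rose and Dnmt3l among those that fell. For genes that were not well above background in one genotype, such as Ceacam10, the point is the fitted change.

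The genes by which the genotypes are named came first. The Cyp26b1 probe read 4.03 and 3.83 on the wild-type arrays and 4.27 and 3.83 on the knockout arrays, a change of 0.12 ± 0.15 (adjusted p = 0.551), so the arrays overlapped. Where this probe lies relative to the deletion is not known here, and a probe beyond the removed part would not test the genotype. The genotypes below are therefore those of the labels. Stra8, which both genotypes carry intact, read 3.73 and 2.41 on the wild-type arrays and 7.19 and 7.04 on the knockout arrays. It rose 16.4-fold (log2 4.04 ± 0.36, adjusted p = 2.35e-04), although its wild-type arrays stood further apart than its knockout arrays. The double knockout arrays, labelled as lacking Stra8, read 5.98 and 6.14 on the same probe, above wild type, and whether this probe lies in the removed part of Stra8 is not known here either.

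Retinoic acid response elements are direct repeats of a half-site, and those with a spacer of 5 bases are the classical form. The repeats were searched in the 250 bases before and 50 after the start of each gene (RefSeq, GRCm38.p6), on both strands, with the half-site AGGTCA or its variants, which were AGTTCA, then GGGTCA and lastly GGTTCA. A repeat with a spacer of 5 lay in the windows of 7 of 10586 named and tested genes with a sequence (0.0661%). Of these Cyp26a1 and Rarb rose 2-fold or more, Prokr2, which encodes a prokineticin receptor, fell, and Blvrb, Hbb-y, Ppbp and Tnfsf13b were not called. The 250 bases before the start are shown for the 3 that were called, 5′ to 3′ on the strand of the gene, with the repeat and its spacer in capitals.
Cyp26a1 (chr19:37697558-37697807, plus strand): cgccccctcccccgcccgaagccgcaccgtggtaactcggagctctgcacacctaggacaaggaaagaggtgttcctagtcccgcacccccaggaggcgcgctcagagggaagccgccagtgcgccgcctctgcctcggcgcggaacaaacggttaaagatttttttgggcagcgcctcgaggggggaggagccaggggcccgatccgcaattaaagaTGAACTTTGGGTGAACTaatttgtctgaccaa
Rarb (chr14:16575477-16575726, minus strand): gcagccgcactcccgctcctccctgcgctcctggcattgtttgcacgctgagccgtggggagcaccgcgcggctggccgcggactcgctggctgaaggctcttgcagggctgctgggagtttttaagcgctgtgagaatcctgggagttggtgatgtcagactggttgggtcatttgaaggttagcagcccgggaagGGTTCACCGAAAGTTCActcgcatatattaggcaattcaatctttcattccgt
Prokr2 (chr2:132385448-132385697, minus strand): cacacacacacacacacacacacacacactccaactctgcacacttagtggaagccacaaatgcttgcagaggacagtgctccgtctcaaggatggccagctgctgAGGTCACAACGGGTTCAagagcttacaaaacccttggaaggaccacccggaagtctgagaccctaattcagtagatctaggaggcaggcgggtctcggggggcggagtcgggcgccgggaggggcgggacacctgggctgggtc
In Cyp26a1 the repeat lies on the opposite strand, 32 to 16 bases before the start. In Rarb it lies 53 to 37 bases before the start and in Prokr2 144 to 128 bases before it, both on the strand of the gene. A match is a description of the letters and not evidence of binding.

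Cyp26a1 and Rarb both rose. Cyp26a1, the CYP26 enzyme best known as a direct target of retinoic acid, read -5.46 and -6.48 on the wild-type arrays and -1.36 and -0.90 on the knockout arrays. It rose 28.7-fold (log2 4.84 ± 0.32, adjusted p = 1.14e-04), with 1 of 2 wild-type arrays well above background. Rarb, the receptor gene induced by its own ligand, read -1.52 and -1.44 on the wild-type arrays and 0.40 and 0.53 on the knockout arrays and rose by 1.95 ± 0.10 (adjusted p = 5.95e-05). The groups did not overlap in either gene, and the wild-type arrays of Cyp26a1 lay near background. On the double knockout arrays Cyp26a1 read -0.83 and -1.01 and Rarb 0.44 and 0.40, close to the knockout arrays. Prokr2 read 0.62 and 0.51 on the wild-type arrays and -1.35 and -1.56 on the knockout arrays, a fall of 2.02 ± 0.13 (adjusted p = 1.06e-04).

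The remaining genes of retinoid metabolism changed in both directions. Dhrs3, a retinal reductase that lowers retinoic acid synthesis, rose from 1.64 and 1.68 to 2.76 and 2.60 (change 1.02 ± 0.09, and 1.20 on its other probe). For retinoid synthesis and binding 5 of 15 tested genes rose and 4 fell (33.3% and 26.7%, against 21.4% and 30% of all transcripts). Their median change was -0.08, against -0.09 over all transcripts. Retinoid counts became 2 higher without wild-type array 2, and 0 higher (1 at an unadjusted p under 0.05) and 1 lower with normexp. The retinal dehydrogenases split, as Aldh1a1 fell by 1.20 ± 0.09, Aldh1a2 fell by 0.48 ± 0.10 and Aldh1a3 rose by 0.42 ± 0.10. Adh1, an alcohol dehydrogenase that acts on retinol, fell by 0.72 ± 0.16. Rdh10, the retinol dehydrogenase of the embryo, rose by 0.63 ± 0.15. Lrat, which stores retinol as esters, rose by 1.59 ± 0.24, with 0.46 on its other probe and -0.07 with normexp, and the binding protein Crabp1 rose by 0.80. Bco1, which cleaves carotenoids to retinal, was well above background in wild type and not in the knockout, and was at least 4.53-fold lower. Among receptors and corepressors 5 of 11 tested genes were called higher and 3 lower (45.5% and 27.3%). Receptor counts became 0 lower (2 at an unadjusted p under 0.05) without wild-type array 1, and 2 higher and 0 lower (0 at an unadjusted p under 0.05) with normexp. Beside Rarb, Rara rose by 1.21 ± 0.22 and Rarg by 0.83 ± 0.17, but both took the other sign with normexp, at -0.44 and -0.33. Of the RXR genes Rxrb (0.83 ± 0.08) and Rxrg (1.0 ± 0.19) rose, and Rxra had a change of -0.20 and was not called.

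Of genes listed as known targets of retinoic acid, 12 of 19 tested genes were called higher and 2 lower, which is 63.2% higher against 21.4% of all transcripts. With normexp fitted on all spots 5 were called higher and 0 lower (0 at an unadjusted p under 0.05), and 12 higher when spots marked as outliers were left out. Their median change was 1.02, or 0.69 with a gene that has a bound set at that bound. Beside Stra8, Cyp26a1, Rarb and Dhrs3, the rises included Rec8, Cdx1 and Tgm2. Tgm2, a transglutaminase, rose by 0.47 ± 0.09 on its brightest probe and by 2.01 and 2.0 on its other probes. Cdx1, a caudal homeobox gene, was well above background in the knockout and not in wild type, and was at least 1.61-fold higher, with a fitted change of -0.80 with normexp. Meis2 fell by 0.51 ± 0.08 and Nrip1, a corepressor, by 0.39 ± 0.10. Crabp2, Stra6, Meis1, Rai14 and Hoxa3 were not called, with changes from -0.48 for Stra6 to 0.13 for Rai14. The other probes of Rai14 gave -1.08 and 0.16. Fabp4, a fatty acid-binding protein outside this list, had the largest rise of the named genes well above background on all 4 arrays, from -2.03 and -2.12 to 2.61 and 2.43 (24.2-fold, log2 4.60 ± 0.10, adjusted p = 8.11e-06). Its other probes gave 4.64 and 4.93, and the double knockout arrays read 3.16 and 2.98.

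Hox genes of the A, B and C clusters rose, mostly those toward the 3′ ends, though 8 of the 14 that rose took the other sign with normexp fitted on all spots. These homeobox genes lie in 4 clusters whose order on the chromosome follows their order along the body, and the 3′ members are known to answer first to retinoic acid in embryos. Of 29 tested, 14 rose (48.3%, against 21.4% of all transcripts) and 6 fell (20.7%, against 30%). Hox falls became 3 without knockout array 2 and 2 without wild-type array 2. In the A cluster Hoxa5 rose from -5.09 and -5.64 to -3.0 and -3.05 (5.06-fold, log2 2.34 ± 0.22, adjusted p = 2.84e-04), Hoxa2 by 1.24 ± 0.21 and Hoxa4 by 1.23 ± 0.19. Hoxa3 had a change of -0.08 on its brightest probe and was not called, with 2.05 on its other probe. In the B cluster Hoxb2, Hoxb3, Hoxb4, Hoxb5, Hoxb6 and Hoxb9 rose by 0.76 to 1.39, or by 0.71 for Hoxb9, and Hoxb8 was at least 1.49-fold higher. Hoxb7 had a change of 0.13 and was not called. Hoxc4 rose by 0.84 ± 0.21 and Hoxc5 by 1.06 ± 0.20, while their 5′ neighbours Hoxc8, Hoxc9 and Hoxc10 fell by 0.67, 0.5 and 0.84. In the D cluster Hoxd1, Hoxd4 and Hoxd10 fell by 0.72, 0.59 and 0.47, and Hoxd9 rose by 0.29. On the double knockout arrays Hoxa5 read -2.63 and -2.82, above the wild-type arrays. These Hox genes were dim, and with normexp fitted on all spots limma called 0 of the 29 higher (also 0 at an unadjusted p under 0.05) and 0 lower (2 at that p), while 13 were called higher when it was fitted without outlier spots. Of the Hox partner genes of the Meis, Pbx and Pknox families, 1 of 9 tested rose (Pbx3, 0.42) and 2 fell (Meis2 and Pbx4). These are 11.1% higher and 22.2% lower, against 21.4% and 30% of all transcripts. Pbx4 fell by 0.59 on its brightest probe, with 0.29 on the other. Partner gene counts became 0 lower (0 at an unadjusted p under 0.05) with normexp.

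**Figure D3:**
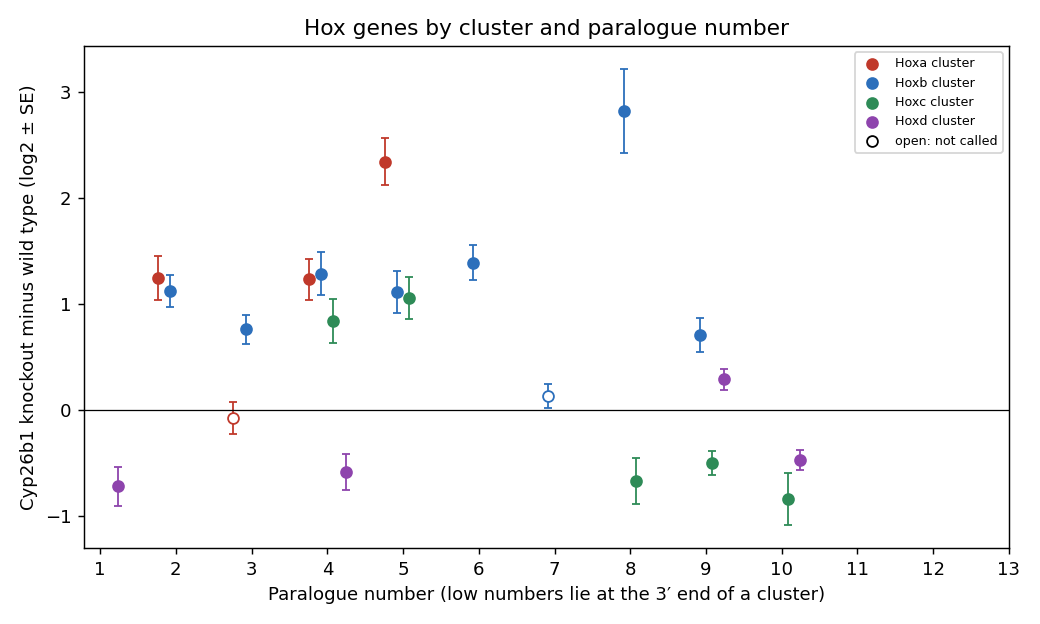
Change of each Hox gene named in the text (Cyp26b1 knockout minus wild type, log2 ± SE of the fit, n = 2 arrays per genotype) by paralogue number and cluster; filled points were called and open points were not. The plotted low-numbered paralogues of clusters A, B and C, up to Hoxb6, lie above 0 apart from Hoxa3, while plotted genes of the D cluster other than Hoxd9 lie below it. The Hoxb8 probe was not well above background in wild type, so its point is a fitted value. With normexp fitted on all spots 8 of the 14 Hox genes that rose took the other sign.

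Genes of meiotic entry and prophase were mostly higher in the knockout. In bulk gonads a different number of cells of a type and a different amount of RNA per cell cannot be told apart. Of 26 tested 19 rose (73.1%, against 21.4% of all transcripts) and 1 fell, with a median change of 0.85. Rec8, the meiotic cohesin that holds sister chromatids, read 1.81 and 2.02 on the wild-type arrays and 4.88 and 4.47 on the knockout arrays and rose by 2.76 ± 0.16 (adjusted p = 8.99e-05), with 3.30 on its other probe. Normexp fitted on all spots called 11 of the list higher, and without outlier spots 18. The other meiotic cohesin subunits rose less, Stag3 by 1.24 ± 0.13 and Smc1b by 1.13 ± 0.20. Synaptonemal complex genes rose by 0.43 (Sycp2), 0.47 (Sycp1), 0.95 (Syce2) and 0.99 (Sycp3), and Hormad1, an axis protein, by 0.77. Genes of meiotic recombination rose as well. Dmc1, the meiotic strand exchange recombinase, read -2.46 and -3.42 on the wild-type arrays and -0.83 and -0.85 on the knockout arrays and rose 4.28-fold (log2 2.10 ± 0.29, adjusted p = 0.00105). Msh5, a MutS homologue of crossover formation, read -4.13 and -4.12 on the wild-type arrays and -2.08 and -1.67 on the knockout arrays and rose by 2.25 ± 0.19, with 1.65 on its other probe, and its partner Msh4 rose by 0.83 ± 0.20 (-0.26 with normexp). Hfm1, a helicase of crossover formation, was at least 2.96-fold higher, since it was not well above background in wild type, and its fitted change was -0.64 with normexp. Terb1, which ties telomeres to the nuclear envelope, rose by 1.68 ± 0.34. Mnd1 went the other way, from 2.66 and 2.62 to 1.59 and 1.12 (a fall of 1.28 ± 0.14, adjusted p = 4.88e-04), although it too serves strand exchange. Spo11, which makes the breaks, had a change of -0.33 on its brightest probe and 0.74 on the other and was not called. Psmc3ip, Tex12, Tex15 and Ccnb3 were not called either, though the other probe of Tex12 gave -0.67.

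The double knockout arrays were read beside these. Rec8 stood at 4.82 and 5.12 there, next to 4.88 and 4.47 in the knockout. Dmc1 read -3.10 and -3.36, Msh5 -4.57 and -4.55 and Terb1 -4.28 and -5.06, all within or below the wild-type values of -2.46 and -3.42, -4.13 and -4.12 and -3.26 and -4.0. Ugt8a, a ceramide galactosyltransferase that meiotic germ cells express, read -3.56 and -4.22 in wild type and -1.07 and -1.03 in the knockout and -4.42 and -4.10 in the double knockout. Rec8 was thus about as high in both mutants, while Dmc1, Msh5, Terb1 and Ugt8a were high on the knockout arrays and not on the double knockout arrays.

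**Figure D4:**
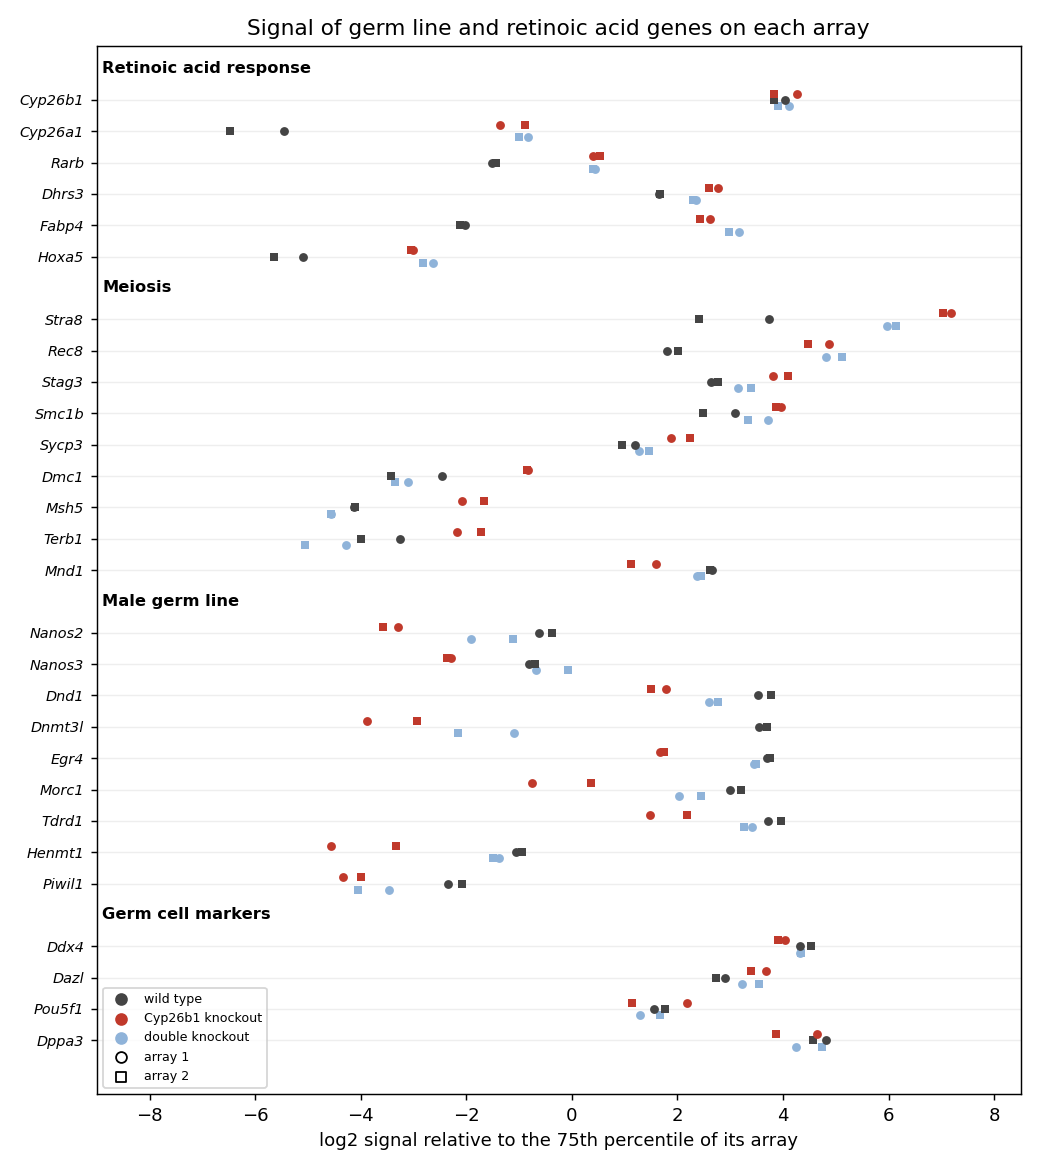
Signal of retinoic acid, meiotic, male germ line and general germ cell genes (horizontal axis, log2, scaled to the upper quartile of each array); each point is an array, circles array 1 and squares array 2, coloured by genotype. The knockout arrays lie to the right of wild type for Stra8, Rec8, Dmc1 and Msh5 and to the left for Nanos2, Dnmt3l, Morc1 and Henmt1, and overlap it for Pou5f1 and Dppa3.

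Most genes of the male germ line program fell. Of 13 tested genes of male germ cell fate 8 fell (61.5%, against 30% of all transcripts) and 3 rose, with a median change of -1.58. Dnmt3l, the cofactor that directs new DNA methylation in germ cells, read 3.55 and 3.69 on the wild-type arrays and -3.88 and -2.94 on the knockout arrays, a 131-fold fall (log2 -7.03 ± 0.38, adjusted p = 7.46e-05) and the largest among genes measured on all 4 arrays. The double knockout arrays lay between, at -1.10 and -2.16. Nanos2, the RNA-binding protein that blocks meiosis in male germ cells, fell from -0.62 and -0.38 to -3.29 and -3.58 (a fall of 2.93 ± 0.26, 7.62-fold, adjusted p = 2.28e-04), and read -1.91 and -1.11 in the double knockout. Its relative Nanos3 fell by 1.58 ± 0.19 and Dnd1, an RNA-binding partner of the Nanos proteins, by 2.01 ± 0.13. Egr4, a zinc finger factor, fell by 2.01 ± 0.08, and Ddx25, a germ cell RNA helicase, by 1.93 ± 0.10 (-1.41 on its other probe). Lhx1, a LIM homeobox gene, fell by 0.80 ± 0.22. The 3 rises were those of Tex13b (0.83), Fgfr3 (0.60) and Magea5 (2.14). Sall4 and Elavl2 were not called, though the other probe of Sall4 gave 0.58.

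Of 13 piRNA pathway genes tested 10 fell (76.9%, against 30%) and 0 rose by limma's adjusted p, with a median of -0.95. At an unadjusted p under 0.05, 1 was higher and 11 were lower. Morc1, needed for transposon silencing in the male germ line, fell from 3.0 and 3.20 to -0.75 and 0.35 (a fall of 3.30 ± 0.32, adjusted p = 2.99e-04), and Henmt1, the methyltransferase of piRNA ends, from -1.06 and -0.94 to -4.56 and -3.32 (a fall of 2.94 ± 0.35, adjusted p = 5.76e-04). The groups were well apart in both. Tdrd1, a Tudor scaffold of the pathway, fell by 2.01 ± 0.21, and -1.05 on its other probe. The Argonaute genes Piwil1 and Piwil2 fell by 1.95 and 1.02, Mael by 1.07, Asz1 by 0.95, Tdrd7 by 0.73 and the helicase Ddx4 by 0.46. The brightest probe of Fkbp6 fell by 0.61 and its other probe gave 0.60. Tdrd12, Mov10l1 and Tex19.1 were not called, though the other probe of Mov10l1 gave -1.11. Among genes of DNA methylation, 7 of 17 tested rose (41.2%, against 21.4% of all transcripts) and 5 fell (29.4%, against 30%). Methylation counts became 3 lower without wild-type array 1, 3 higher without wild-type array 2, and 2 lower with normexp. Dnmt3a, a de novo methyltransferase, fell by 1.64 ± 0.24 on its brightest probe, with -1.72 and 0.21 on the others, while Dnmt1, the maintenance methyltransferase, rose by 0.99 ± 0.08, Hells, a chromatin remodeller, by 0.95 ± 0.09 and Uhrf1 by 0.35.

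Markers of germ cells were read beside these counts. Of the 6 germ cell markers Ddx4, Dazl, Pou5f1, Dppa3, Mael and Nanos3, all were well above background on every array, 1 rose and 3 fell. The 3 that fell, Ddx4, Mael and Nanos3, are already counted in the piRNA and male germ cell lists above. This set is thus not separate from those lists. Their summed signal, in units of the 75th percentile of the array, was 84.6 to 86 in wild type and 56.1 to 70.9 in the knockout. Dazl, an RNA-binding protein of germ cells, rose by 0.72 ± 0.14 (1.19 on its other probe). Pou5f1 was not called and its genotypes overlapped (1.56 and 1.77 in wild type and 2.18 and 1.14 in the knockout), and Dppa3 had a change of -0.44, also with overlap. In the wider list of germ cell genes 8 of 18 tested rose (44.4%, against 21.4% of all transcripts) and 5 fell (27.8%, against 30%). The median of that list was -0.02. Germ cell counts became 3 lower without wild-type array 2, and 2 lower with normexp. Taf7l, a germ cell TFIID subunit, rose by 1.84 ± 0.13, and 2.15 on its other probe. Kit, the receptor that marks germ cells of both sexes, rose by 1.07 ± 0.13.

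Pluripotency genes, which male germ cells switch off as they arrest, gave counts that depended on the knockout array. By call 10% rose and 30% fell, against 21.4% and 30% of all transcripts. Of 20 tested 2 rose and 6 fell, and these became 12 lower without knockout array 1, and 5 higher without knockout array 2. Dppa4 fell by 2.07 ± 0.20, Utf1 by 1.26 ± 0.19, Tfap2c, a factor of primordial germ cells, by 1.69 ± 0.26, Fbxo15 by 0.99 ± 0.11, Klf4 by 0.85 ± 0.10 and Prdm1, also called Blimp1, by 0.78 ± 0.24. Gdf3 rose by 1.49 ± 0.44 and Eras by 1.67 ± 0.35, which was -0.32 with normexp. Sox2 and Nanog, at 1.08 and 0.93, were not called.

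Genes known from oocytes moved in both directions. Of 16 tested 5 rose (31.2%, against 21.4% of all transcripts) and 6 fell (37.5%, against 30%). Oocyte counts became 2 higher and 1 lower with normexp. Sohlh2, a bHLH factor of early oocytes and spermatogonia, read -2.0 and -2.55 on the wild-type arrays and 1.93 and 1.45 on the knockout arrays and rose 15.6-fold (log2 3.97 ± 0.24, adjusted p = 9.23e-05), and read -0.13 and 0.33 in the double knockout. Figla, a bHLH factor of the primordial follicle, rose by 1.73 ± 0.18 and Lhx8, a LIM homeobox factor of oocytes, by 1.29 ± 0.40. Mos, the oocyte kinase, was at least 1.42-fold higher. Lhx8 and Mos took the other sign with normexp, at -0.11 and -0.88. Several genes of the growing oocyte fell. Padi6, of the oocyte lattices, read -1.93 and -2.01 on the wild-type arrays and -5.48 and -6.30 on the knockout arrays (a fall of 3.92 ± 0.34, with 1 of 2 knockout arrays well above background). Khdc3 fell by 1.99 ± 0.36, the oocyte linker histone H1f8 by 1.20 ± 0.18 and the zona pellucida gene Zp3 was at least 3.11-fold lower. Nobox, Gdf9, Ooep, Zar1 and Npm2 were not called.

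X-linked homeobox genes of the Rhox cluster and Magea genes rose. Of 7 Rhox genes tested 5 rose and 1 fell (71.4% and 14.3%, against 21.4% and 30% of all transcripts). Rhox3a read -2.75 and -3.09 on the wild-type arrays and 0.38 and 0.52 on the knockout arrays (log2 3.37 ± 0.21), Rhox6 -1.04 and -1.20 on the wild-type arrays and 1.96 and 1.62 on the knockout arrays (2.91 ± 0.16) and Rhox9 -0.44 and -0.59 on the wild-type arrays and 2.04 and 1.85 on the knockout arrays (2.46 ± 0.13). Rhox2a rose by 1.61 ± 0.31 and Rhox11 was at least 1.7-fold higher (-0.83 with normexp), while Rhox4e fell by 0.55 ± 0.14 and Rhox5 had a change of 0.22 and was not called. Rhox6 read -0.72 and -0.39 in the double knockout, above wild type and below the knockout. A run of 5 tested neighbours, Magea6, Magea3, Magea8, Magea5 and Magea1, rose by 1.05 to 2.14. Rhox2, Rhox3, Rhox4 and Magea genes have near-identical copies, so a probe may read several of them.

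Signals of the Nodal and TGF-beta families, which act between Sertoli and germ cells, included large rises and a count of falls that depended on 1 array. Of 30 genes tested 8 rose and 16 fell (26.7% higher and 53.3% lower), with a median of -0.40. TGF-beta counts became 7 lower without wild-type array 1, and 3 lower with normexp. Lefty1, a Nodal antagonist and Nodal target, read -2.28 and -2.87 on the wild-type arrays and 2.41 and 0.97 on the knockout arrays (log2 4.27 ± 0.48, adjusted p = 4.93e-04), so that both knockout arrays lay above wild type but stood further apart than the wild-type arrays. Lefty2 rose by 1.11 ± 0.16. The double knockout arrays read -1.51 and -0.59 for Lefty1. Acvr2b, an activin and Nodal receptor, rose by 1.48 ± 0.14. The inhibitory Smad7 fell by 1.83 ± 0.09, follistatin (Fst) by 1.73 ± 0.26, Bmp8b by 1.41 ± 0.17 and the BMP targets Id2 and Id4 by 0.98 and 1.38, while Id3 rose by 0.77. The activin subunit Inhba fell by 0.67. Inha fell by 0.47 and Inhbb by 0.57 on their brightest probes, with 0.16 and 0.33 on their other probes.

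Sertoli cell genes moved in both directions. The 6 Sertoli markers Sox9, Amh, Dhh, Aard, Cst9 and Ptgds were well above background on every array. Their summed signal was 134 to 154 in wild type and 170 to 175 in the knockout, though 2 rose and 2 fell. Of 28 genes tested 7 rose (25%, against 21.4% of all transcripts) and 12 fell (42.9%, against 30%), with a median of -0.11. Sertoli counts became 7 lower without knockout array 1, 6 lower without wild-type array 1, and 2 higher and 4 lower with normexp. Sox9, the central transcription factor of these cells, read 1.87 and 1.43 on the wild-type arrays and 1.75 and 1.67 on the knockout arrays. It was not called on this brightest probe, and its other probes gave 0.786 and 0.795. Amh, the hormone that removes the Müllerian duct, fell by 0.40 ± 0.12. Hsd17b1 and Hsd17b3, which complete androgen synthesis in fetal Sertoli cells, fell by 2.85 ± 0.22 and 0.80 ± 0.12, and read -1.98 and -2.12 and -0.23 and -0.55 in the double knockout. Dmrt1, a sex-determining factor of Sertoli and germ cells, read -3.36 and -2.74 on the wild-type arrays and -0.20 and -0.18 on the knockout arrays and rose 7.26-fold (log2 2.86 ± 0.20, adjusted p = 1.20e-04), with -1.91 and -1.74 in the double knockout. Gata1 rose by 1.20 ± 0.24 (-0.67 with normexp) and Ngef by 1.21 ± 0.15. Gata4 rose by 0.53 on its brightest probe and had -0.32 on the other.

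Genes of fetal Leydig cells and of cholesterol synthesis changed in both directions. Of 22 Leydig and steroid genes 4 rose and 10 fell (45.5%, against 30% of all transcripts), and of 24 cholesterol genes 6 rose and 11 fell (45.8%), with medians of -0.23 and -0.16. Leydig counts became 2 higher without knockout array 2, 2 higher without wild-type array 1, 2 higher without wild-type array 2, and 1 higher and 5 lower with normexp. Cholesterol counts became 2 higher and 6 lower with normexp. Star, which carries cholesterol into mitochondria, read 3.62 and 3.56 on the wild-type arrays and 1.78 and 2.26 on the knockout arrays and fell by 1.57 ± 0.15 (-1.06 on its other probe). Cyp17a1 fell by 0.53 ± 0.16, Hsd3b1 by 0.70 ± 0.16, and the electron donors Fdx1 and Fdxr by 0.99 and 1.06. Cyp11a1, the side-chain cleavage enzyme, read 4.25 and 4.04 on the wild-type arrays and 3.75 and 4.30 on the knockout arrays. It was not called on this brightest probe, and its other probe gave 0.59. The summed signal of the 5 tested Leydig markers was 110 to 129 in wild type and 69.5 to 90.3 in the knockout. Of the steps of cholesterol synthesis Ebp fell by 1.49 ± 0.23, Hsd17b7 by 1.86 ± 0.09 and Tm7sf2 by 1.11 ± 0.13, while Acat2 rose by 1.33 ± 0.16. Probes disagreed for Cyp51 (a fall of 0.92, with 0.89 and 0.60 on its other probes) and Hmgcs1 (a fall of 0.78, with 0.11). Cited4, a transcriptional coactivator, rose by 2.15 ± 0.15, and 1.94 on its other probe. Vcam1 and Stard4 fell by 1.54 and 1.42 on their brightest probes, but Vcam1 had 0.58 and Stard4 0.43 and 0.32 on others.

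Ovarian somatic genes gave no single direction. Of 25 tested 11 rose (44%, against 21.4% of all transcripts) and 8 fell (32%, against 30%). Ovarian counts became 6 higher without wild-type array 1, and 6 higher and 4 lower with normexp. Foxl2, the transcription factor that defines fetal ovarian supporting cells, and Irx3 were not among the genes tested. Wnt4, which promotes the ovarian fate, rose by 1.23 ± 0.09, Sfrp2 by 1.43 ± 0.14 and Msx1, which acts in meiotic entry, by 1.16 ± 0.16. Msx2 fell by 1.93 ± 0.16, Lef1 by 1.02 ± 0.18 and Fst as given above. Rspo1 and Ctnnb1 were not called, though the other probe of Ctnnb1 gave 0.87.

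The other cell types of the gonad could be followed through their own markers. In the interstitial and peritubular list 5 of 25 rose (20%, against 21.4% of all transcripts) and 10 fell (40%, against 30%). The summed signal of the 6 markers was 63.9 to 72.6 in wild type and 61.5 to 66.7 in the knockout. Interstitial counts became 6 lower without wild-type array 1, 3 higher without wild-type array 2, and 3 higher and 5 lower with normexp. Pdgfra fell by 1.07 on its brightest probe and had 0.74 on the other. Pdgfa, a ligand made in the cords, fell by 1.5 ± 0.10, and -1.10 on its other probe. Of 21 endothelial genes 9 rose and 4 fell (42.9% and 19%). Endothelial counts became 2 higher and 1 lower with normexp. Pecam1 rose by 1.58 ± 0.15 and Flt4 by 0.98 ± 0.18 (-0.66 with normexp), whereas Vwf, the clotting factor carrier, fell by 2.23 ± 0.15 (-1.97 on its other probe), Kdr fell by 0.52 and Cdh5 fell by 0.69 on its brightest probe with 1.04 on the other. The 6 endothelial markers summed to 11.2 to 11.8 in wild type and 10.2 to 10.5 in the knockout, though 3 of them rose and 2 fell. Of 24 macrophage and blood genes 3 rose and 5 fell (12.5% and 20.8%). Macrophage counts became 2 lower without wild-type array 1, 1 lower without wild-type array 2, and 0 higher (0 at an unadjusted p under 0.05) and 1 lower with normexp. Csf1r and C1qa rose by 0.66 and 0.67, and the invariant chain Cd74 fell by 2.15 ± 0.16. The summed macrophage markers were 1.26 to 1.3 in wild type and 1.63 to 1.68 in the knockout, and the summed erythroid markers 198 to 224 and 136 to 178.

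Markers of tissues next to the gonad were also read. Of 18 mesonephros and duct genes 3 rose (16.7%, against 21.4%) and 5 fell (27.8%, against 30%). Mesonephros counts became 3 lower without knockout array 2, 1 higher without wild-type array 1, 2 lower without wild-type array 2, and 1 higher with normexp. The 6 mesonephros and duct markers summed to 5.91 to 6.52 in wild type and 3.56 to 4.61 in the knockout, with 1 higher and 3 lower. Of the adrenal markers Cyp21a1, Cyp11b1 and Cyp11b2 were not tested, and the other 3 summed to 3.9 to 4.23 and 1.97 to 2.1, with Akr1b7, an aldo-keto reductase of the adrenal cortex, down by 1.48 ± 0.14. Of 17 neuron and Schwann cell genes 2 rose and 8 fell (11.8% higher and 47.1% lower). Neuron counts became 5 lower without wild-type array 1, and 0 higher (0 at an unadjusted p under 0.05) and 2 lower with normexp. Nefm, a neurofilament, fell by 2.06 ± 0.30, Th, the catecholamine enzyme, was at least 2.62-fold lower and Snap25, of the synaptic vesicle release machinery, at least 2.43-fold lower. Elavl3 rose by 2.08 ± 0.24. Of 11 skeletal muscle genes 6 fell (54.5%, against 30%) and 0 rose by limma's adjusted p. At an unadjusted p under 0.05, 7 were lower and 1 higher. Muscle counts became 2 lower with normexp. Tnnc2, fast troponin C, read 0.27 and 0.36 on the wild-type arrays and -3.61 and -3.49 on the knockout arrays (a fall of 3.86 ± 0.31), Actn2 fell by 2.48 ± 0.45 and Myh2 by 2.44 ± 0.47, and the summed muscle markers were 0.659 to 0.758 in wild type and 0.19 to 0.257 in the knockout. The defining factor Myod1 was not tested. The part of neighbouring tissue in the counts of lower genes was not tested.

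Y-linked genes were measured in both genotypes, and Xist was not among the genes tested. Ddx3y fell by 0.93 ± 0.14 and Usp9y by 2.70 ± 0.92 (1 of 2 knockout arrays well above background). Kdm5d, Eif2s3y, Uty and Zfy2 were not called, with changes from -0.5 for Uty to 0.20 for Kdm5d.

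**Figure D5:**
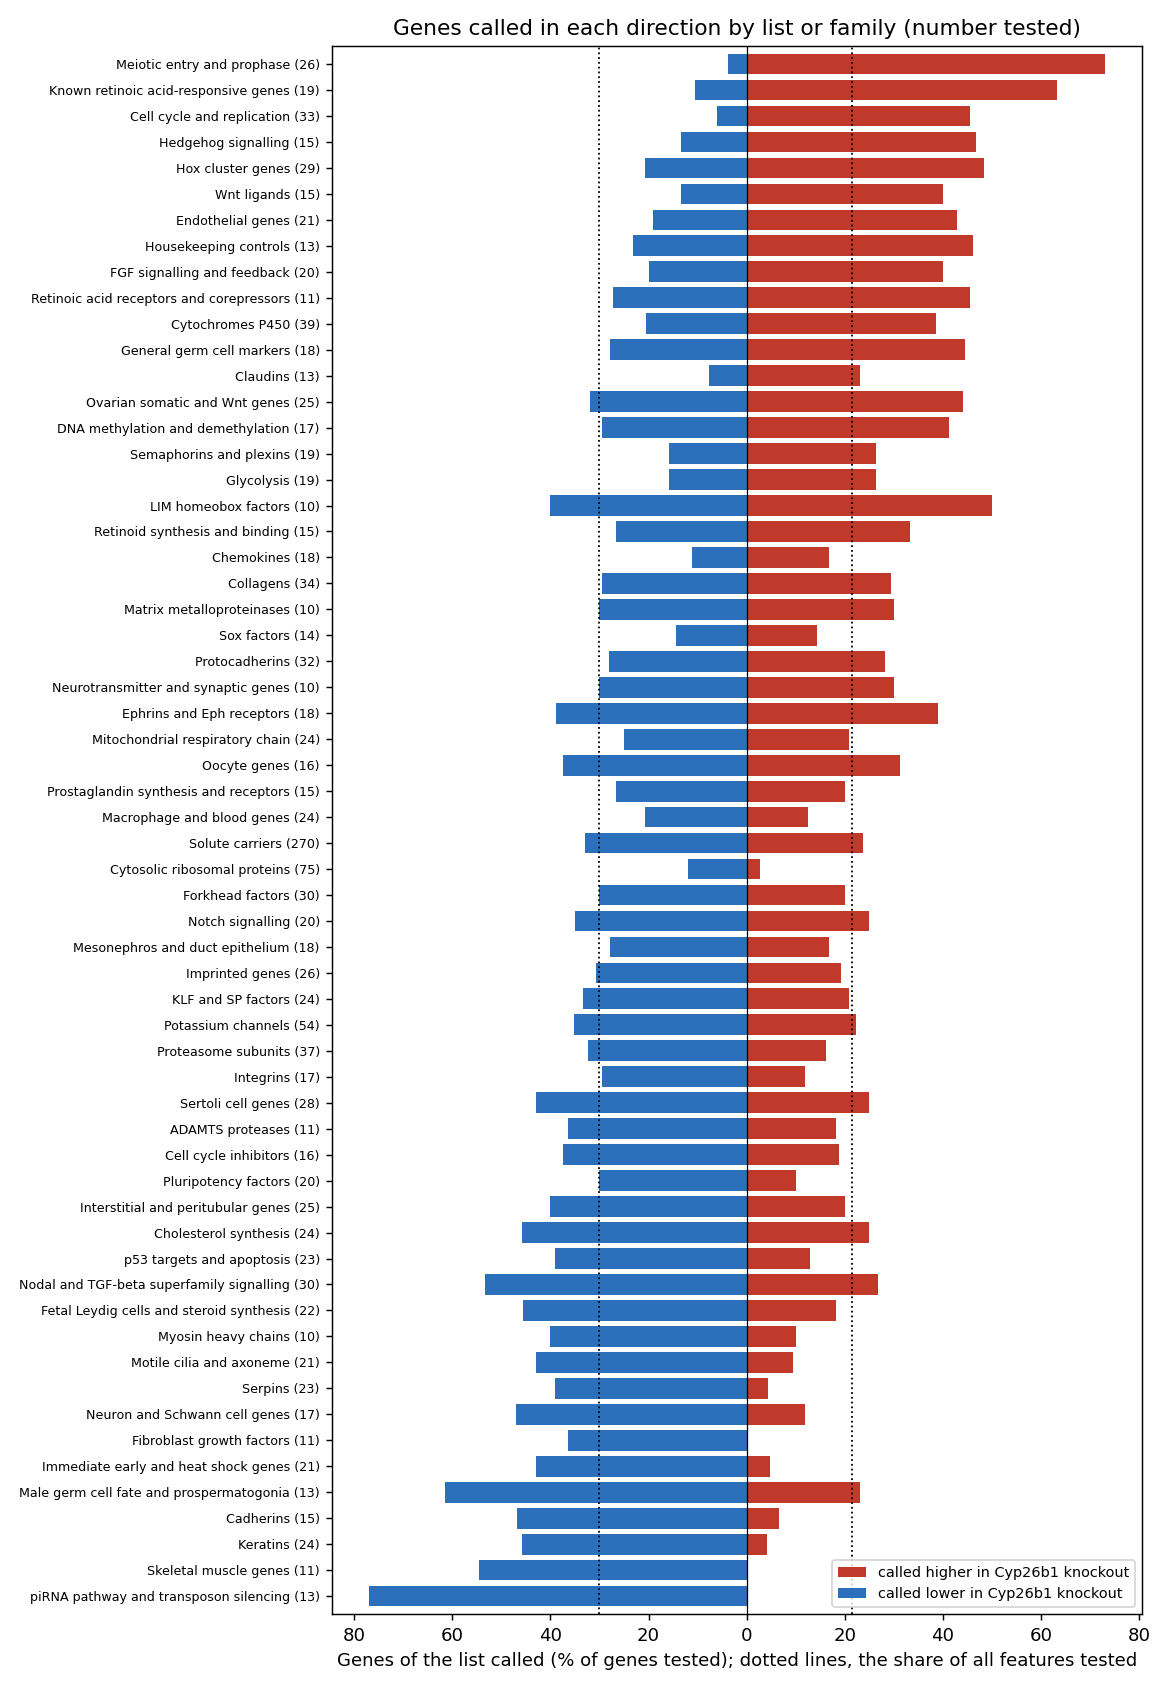
Share of tested genes called higher (right) and lower (left) in the Cyp26b1 knockout for each gene list and family with at least 10 tested genes, with the number tested in brackets; dotted lines mark the share of all 21504 transcripts, 21.4% higher and 30% lower. Meiotic genes and known retinoic acid-responsive genes lie at the top with the largest excess of rises, and the piRNA pathway at the bottom with 76.9% lower.

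Of 33 replication and cell cycle genes 15 rose (45.5%, against 21.4% of all transcripts) and 2 fell. Cdk2 rose by 1.99 ± 0.19 on its brightest probe and had -0.29 on the other. Ccne1 and Ccne2, the cyclins of entry into S phase, rose by 1.14 and 1.37, with 1.41 and 1.25 on their other probes. E2f1 rose by 1.06 ± 0.11, with 1.66 on its other probe. Ccnd1 rose by 1.03 ± 0.13, Mcm3 by 1.30 ± 0.09 and Mcm2 by 0.83 ± 0.08, while Mcm4, Mcm6, Mcm7, Pcna, Cdk1 and Ccna2 were not called. The mitotic genes Aurkb and Bub1 fell by 0.58 and 0.33. Among cell cycle inhibitors 3 rose and 6 fell of 16 (18.8% and 37.5%, against 21.4% and 30% of all transcripts). Inhibitor counts became 3 lower without wild-type array 1, and 2 lower with normexp. The falls included Cdkn2b, the inhibitor p15, which fell by 1.92 ± 0.14, Cdkn1a by 0.93, Cdkn1b by 0.83 and Cdkn1c by 0.71.

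Of 23 genes of the p53 response and apoptosis 3 rose (13%, against 21.4% of all transcripts) and 9 fell (39.1%, against 30%). Pmaip1, which encodes Noxa, fell by 1.85 ± 0.19, the death receptor Fas by 1.58 ± 0.17 and Casp9 by 1.05 ± 0.38, while Bax rose by 1.05 ± 0.15. Trp53 itself fell by 1.54 on its brightest probe and had 0.63 on the other. Of 21 immediate early and heat shock genes 1 rose (4.76%) and 9 fell (42.9%). Heat shock counts became 3 higher without knockout array 2, and 5 lower with normexp. Egr1 and Egr2 fell by 1.62 ± 0.12 and 1.36 ± 0.20, Myc by 0.89 ± 0.11 (with -0.79 and 0.20 on its other probes) and Hspb1 by 1.17 ± 0.15, and Fos, Fosb, Jund and Dusp1 were not called.

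Genes commonly used as constant references also changed. Of 13 tested 6 rose (46.2%, against 21.4% of all transcripts) and 3 fell (23.1%, against 30%), and 3 rose with normexp. Actb, cytoplasmic actin, read -1.64 and -1.66 on the wild-type arrays and 0.56 and 0.73 on the knockout arrays, a rise of 2.30 ± 0.12 (adjusted p = 6.55e-05), and -1.60 and -1.81 in the double knockout. B2m fell by 1.07 ± 0.11 (-1.10 on its other probe), Eef1a1 rose by 0.73 ± 0.13 on its brightest probe with -0.07 on the other, and Rpl13a and Ywhaz were not called. Of 75 cytosolic ribosomal protein genes 2 rose (2.67%) and 9 fell (12%), with a median of -0.13, close to the -0.09 of all transcripts. Ribosomal counts became 19 lower without knockout array 1, 5 lower without knockout array 2, 4 lower without wild-type array 1, 5 lower without wild-type array 2, and 0 lower (0 at an unadjusted p under 0.05) with normexp.

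Of 21 tested genes of motile cilia and of the sperm axoneme 9 fell (42.9%, against 30%) and 2 rose. Drc1, of the dynein regulatory complex, read 3.56 and 3.90 on the wild-type arrays and -1.08 and -0.67 on the knockout arrays, a 24.3-fold fall (log2 -4.60 ± 0.19, adjusted p = 4.76e-05), and 1.75 and 1.34 in the double knockout. Tekt1, a tektin of the doublet microtubules, fell by 2.92 ± 0.13 (-2.88 on its other probe). Zmynd10, an assembly factor of dynein arms, fell by 2.51 ± 0.34 and Rsph1, of the radial spoke head, by 2.18 ± 0.16. Dnah5, an outer arm dynein, was at least 3.81-fold lower. Normexp fitted on all spots called 4 of the list lower and 0 higher (also 0 at an unadjusted p under 0.05), and without outlier spots 8. Foxj1, the factor that switches on motile cilia, had a change of 0.25 and was not called, and Rfx2 rose by 0.60 ± 0.20, which was -0.51 with normexp.

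Several structural families were read against the 21.4% higher and 30% lower of all transcripts. Of 24 keratins tested 1 rose and 11 fell (4.17% higher and 45.8% lower), and 4 fell with normexp. Krt17 read 0.81 and 1.10 on the wild-type arrays and -1.88 and -1.52 on the knockout arrays (a fall of 2.65 ± 0.25), Krt27 fell by 2.47 ± 0.31, and the hair keratins Krt71, Krt25, Krt87 and Krt86 were at least 3.92-, 3.55-, 2.53- and 2.49-fold lower, while Krt79 rose by 1.33 ± 0.17. Krt8 and Krt18, the keratins of simple epithelia, fell by 0.67 and 0.67. Of 15 cadherins 1 rose (Cdh23, 1.52) and 7 fell (6.67% higher and 46.7% lower; 4 with normexp), with Cdh20 down by 2.42 ± 0.21 and Cdh11 by 0.83 ± 0.10. Of 23 serpins 1 rose (Serpine2, 0.88) and 9 fell (4.35% higher and 39.1% lower; 3 with normexp), led by Serpinb5 at -2.66 and Serpina5, the protein C inhibitor, at -2.51. Collagens were even, with 10 up and 10 down of 34 (29.4% each). Integrins had 2 up and 5 down of 17 (11.8% higher and 29.4% lower), with 3 down with normexp. Collagen counts became 6 lower without knockout array 1, 6 higher and 5 lower without wild-type array 1, and 5 higher and 2 lower with normexp. Cytochromes P450 had 15 up and 8 down of 39 (38.5% higher and 20.5% lower) and a median of 0.37. P450 counts became 4 lower without wild-type array 1, 4 lower without wild-type array 2, and 2 higher and 0 lower (3 at an unadjusted p under 0.05) with normexp. Beside Cyp26a1 the measured rises included Cyp2d12 at 1.93 and Cyp2r1, a vitamin D hydroxylase, at 1.76.

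Signalling families other than retinoic acid and TGF-beta moved in parts. Of 20 FGF pathway genes 8 rose (40%, against 21.4% of all transcripts) and 4 fell (20%, against 30%). Of 11 tested FGF ligands 4 fell (36.4%) and 0 rose by limma's adjusted p. At an unadjusted p under 0.05, 5 were lower and 0 higher. Fgf8 fell by 1.36 ± 0.16 and Fgf21 by 2.31 ± 0.22, and Fgf9, the Sertoli cell ligand, had a change of 0.05 and was not called. FGF list counts became 2 lower without wild-type array 1, and 2 higher and 2 lower with normexp. The ETS factors Etv4 and Etv5 rose by 1.21 and 1.14 (the latter -0.10 with normexp), whereas the feedback inhibitor Spry4 fell by 1.01. In the Hedgehog list 7 rose and 2 fell of 15 (46.7% and 13.3%). Hedgehog counts became 4 higher without wild-type array 2, and 1 higher with normexp. Dhh, the Sertoli cell ligand, rose by 0.31, Smo by 0.40, Gli1 by 0.60 and the inhibitor Sufu by 1.31 (-0.23 with normexp), and Ptch1 was not called. Among Frizzled receptors Fzd5 rose by 2.22, with 0.49 on its other probe, and Fzd8 by 1.77. Of 15 Wnt ligands 6 rose and 2 fell (40% and 13.3%), and Notch genes had 5 up and 7 down of 20 (25% and 35%). Wnt ligand counts became 4 lower without knockout array 1, 3 higher without wild-type array 1, and 2 higher and 0 lower (1 at an unadjusted p under 0.05) with normexp. Notch counts became 4 lower without knockout array 1, 2 lower without wild-type array 1, 3 higher and 3 lower without wild-type array 2, and 0 higher (0 at an unadjusted p under 0.05) and 2 lower with normexp. Ptgds, the prostaglandin D synthase of Sertoli cells, fell by 0.80. Of 26 imprinted genes 5 rose and 8 fell (19.2% and 30.8%, near the 21.4% and 30% of all transcripts). Imprinted gene counts became 3 higher without wild-type array 2, and 2 higher and 2 lower with normexp. Phlda2 fell from -0.19 and -0.13 to -3.64 and -3.56 (a fall of 3.44 ± 0.11, and -3.39 on its other probe), and Slc22a18, its neighbour in the same imprinted cluster, fell by 1.98 ± 0.15, with -0.38 on its other probe. Gnas rose by 1.33 ± 0.09, with 2.58 and 1.15 on its other probes, and Igf2, Igf2r, Dlk1 and Mest were not called.

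Ranking all named genes adds others that no list held. Among the 15 largest rises of genes measured on all 4 arrays were Rnf138rt1, from -4.98 and -4.80 to -1.48 and -1.63 (10.1-fold), Timmdc1, an assembly factor of respiratory complex I, from -3.22 and -3.07 to 0.37 and -0.16 (9.51-fold), and Phf11a, from -4.01 and -3.90 to -0.38 and -1.17 (9.05-fold). Cphx1, a homeobox gene, rose 7.32-fold and Inca1, which binds cyclin A1 with its kinase, 7.43-fold. Their double knockout arrays differed, at -1.70 and -1.51 for Rnf138rt1, -3.16 and -2.38 for Timmdc1 and -3.34 and -3.19 for Inca1. Rnf138rt1 was thus as high there as in the knockout, while Inca1 lay below its wild-type values of -2.37 and -3.16.

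The largest falls after Dnmt3l began with Slc4a7, a bicarbonate transporter, at 3.91 and 3.59 on the wild-type arrays and -1.0 and -1.22 on the knockout arrays. Its other probes changed by -1.21 and -0.37, and its double knockout arrays read 4.01 and 4.64, so the 29-fold fall of the brightest probe was not matched in size by the others. Dbx2, a homeobox gene, fell from 1.08 and 1.40 to -4.0 and -3.23 (28.9-fold) and the vesicular GABA transporter Slc32a1 from 0.21 and 0.15 to -4.36 and -3.89 (19.8-fold). Dusp26, a phosphatase, fell 16.2-fold and Fmn1, a formin, 12.9-fold with -3.34 on its other probe. These 4 had double knockout values between wild type and knockout, for example -1.73 and -1.60 for Dbx2 and -1.49 and -1.45 for Fmn1. Falls of 11.4- to 15.7-fold were seen in Car6, a secreted carbonic anhydrase, Marchf1, a ubiquitin ligase, Jaml, an adhesion molecule, Ckmt1, a mitochondrial creatine kinase, Sly, Slc5a4a and B430306N03Rik. Sly is a Y-linked gene with many near-identical copies, and its double knockout arrays read 0.07 and -0.87 beside -0.46 and -0.10 in wild type.

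Some genes were measured in one genotype and not above background in the other, which gives a bound. Among named and called genes 178 were well above background on both knockout arrays and neither wild-type array, and 143 the reverse. The largest bounds upward were those of Pax6, a homeobox factor of eye and brain, at least 6.81-fold higher (-6.76 and -7.27 in wild type and -2.69 and -3.61 in the knockout), Tecta at least 5.94-fold, Trh, the thyrotropin-releasing hormone, 5.7-fold, Gbx2 5.33-fold, the BMP antagonist Nog 5.25-fold, Magea4 4.94-fold, and Ptf1a and Adamtsl4 4.52-fold each. Of these, 6 took the other sign with normexp, at -0.07 for Tecta, -0.06 for Trh, -0.08 for Gbx2, -0.32 for Nog, -0.46 for Ptf1a and -0.40 for Adamtsl4. Downward they were Ceacam10, at least 22.7-fold lower (-1.89 and -1.64 in wild type and -8.32 and -6.11 in the knockout), Gzma, a granzyme, 20.7-fold, Rph3a 17.4-fold, Syce1l 14.7-fold, Trim61 13.1-fold, Cpn1 12.1-fold, Helt 10.1-fold and Cd86 7.76-fold. By their bound, 33 genes reached 4-fold downward and 13 upward. The lowest signal well above background was -6.43 and -6.19 on the knockout arrays. On the wild-type arrays it was -5.87 and -5.97, so bounds upward had less room.

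Some genes next to each other on a chromosome changed in the same direction. Runs of at least 4 tested genes next to each other, all called the same way at 2-fold or more, numbered 5. Beside the Magea run, the class I genes H2-Q1, H2-Q2, H2-Q7 and H2-Q10 rose by 1.90 to 2.11. Genes of the oligoadenylate synthetase family, Oas3, Oas1e, Oas1c, Oas1f, Oas1a and Oas1d, with Rph3a beside them, were lower. Among them Oas1c read -1.75 and -1.51 on the wild-type arrays and -3.83 and -3.96 on the knockout arrays (a fall of 2.27). Oas3 was well above background on 1 of 2 knockout arrays. Slc38a5 with Ssxb1, Ssxb2, Ssxb3 and Ssx9 fell by 1.28 to 1.58, and Mup4, Mup1 and Mup3, of the major urinary proteins, fell with Zfp37. Most of these runs are clusters of near-identical copies, where a probe may read several genes, and untested genes lay between the members.

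The promoter windows were also searched for other motifs on both strands, as a description. CACGTG, the E-box bound by many bHLH factors, lay in 11.3% of 10586 windows, in 9.81% of genes that rose 2-fold or more and in 11.5% of those that fell. CNCCTCAG lay in 11.1%, 12.6% and 12.6%. TGACGTCA, the cyclic AMP response element, lay in 3.28%, 3.32% and 2.78%. GGCGGGAA, an E2F-like pattern, lay in 4.41% of all windows, in 38 of 693 genes that rose 2-fold or more (5.48%) and in 22 of 792 that fell (2.78%). Direct repeats with a spacer of 2 lay in 11 genes and with a spacer of 1 in 29. Of genes that changed 2-fold or more, the former were 1 gene that rose and Spata9, which fell (-1.26). The latter were Ak4, which rose (1.79), and Apol7c and Bco1, which fell. The window of Stra8 held none of these direct repeats, which says only that these letters are not in it.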

How the data were processed

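Total RNA of male gonads was labelled with Cy3 and hybridised to 1-colour Agilent arrays, 2 for each of 3 genotypes. The authors deposited the scanner intensity of each spot as processed signal, background-subtracted by Feature Extraction 9.5.3.1 per the file headers (version 9.5 per the submitters' processing notes). They also deposited a value table with 1 linear ratio per genotype, which served only for an alternative scaling; the sources used here do not give its scaling or centring. Its differences between genotypes matched those of the scanner files with an offset of 0.10 (log2) for the knockout against wild type.

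Control spots and outlier spots were left out, spots of a probe were averaged, and log2 processed signals were set relative to the 75th percentile of each array, with no pseudocount. Upper quartiles were 997 to 1532 intensity units, and 25474 to 28210 probes were well above background per array. Of 41149 probes 23363 had 1 gene symbol, none had several and 17786 had none. Where a gene had several probes the brightest was used. Changes were tested with limma 3.58.1 (R 4.3.3; lmFit, eBayes with trend, two-sided, 6 arrays in the fit, 3 residual degrees of freedom, median prior degrees of freedom 4.34) and Benjamini-Hochberg adjustment. The fit was also run on simulated arrays with independent noise and no effect of slide or scan, so that run does not test such effects. A bound ("at least") sets the brighter genotype against a limit on each array of the other. That limit is the higher of the probe's own signal and the lowest signal well above background on that array.

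The gene lists, the families and the comparison itself were chosen with earlier results of these data known. Genes were named as those of the genotypes, the 15 largest rises and falls measured on all 4 arrays with groups and probes in one direction, the 8 largest bounds each way, members of the lists and families, neighbouring runs, and genes whose promoter window holds a direct repeat. The array number pairs nothing in the labels. Mean spot signals were not used here, so normexp (offset 50) took median spot and background signals. Some genes that these rules name are not reported here.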

Additional observations from a re-analysis of the deposited data

How the results depend on the processing

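Scaling, the filter on dim probes, a fit of only the 4 arrays compared and the variance prior left the counts of higher and lower transcripts within 1.5 times of those reported. Every probe as a feature of its own gave 7014 higher. Normexp fitted on all spots gave 1621 higher and 1973 lower, and 5 higher among retinoic acid-responsive genes, 11 among meiotic genes and 0 among Hox genes, with 4 cilia genes lower. Fitted without outlier-marked spots it gave 5140 higher and 5678 lower, and 13 Hox genes higher. The variance prior of limma was refitted in each setting. For Stra8 the SE was 0.38 and limma's adjusted p 9.44e-26 with normexp on all spots. In the reported fit these were 0.36 and 2.35e-04. The cause of the lower counts was not tested.

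Leaving out each array in turn gave 3061 to 4582 higher, the lowest without wild type array 2, and 4346 to 6434 lower, 12 to 15 cell cycle genes higher, 11 to 14 Hox genes, 11 to 12 retinoic acid-responsive genes and 16 to 20 meiotic genes higher, and 7 to 8 male germ line, 7 to 10 cilia and 9 to 11 piRNA genes lower. Stra8 ranged from 3.38 to 4.70 and Cyp26b1 from -0.10 to 0.34. With 1 array left in a genotype, that array is assumed to vary like the others.

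With array number as a replicate block 4815 were higher and 6898 lower, which moved no count by over 1.5 times. Deviations of same-numbered arrays correlated at 0.12 to 0.23, and the arrays share only a number. Slide as a random block was not run, since each genotype lies on its own slide.

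Under normexp fitted on all spots these genes took the other sign: Hoxa2 -0.55, Hoxa4 -0.41, Hoxb3 -0.25, Hoxb4 -0.29, Hoxb5 -0.49, Hoxb8 -0.83, Hoxc4 -0.33, Hoxc5 -0.40, Rara -0.44, Rarg -0.33, Cdx1 -0.80, Lrat -0.07, Hfm1 -0.64, Msh4 -0.26, Mos -0.88, Lhx8 -0.11, Eras -0.32, Rhox11 -0.83, Gata1 -0.67, Flt4 -0.66, Etv5 -0.10, Sufu -0.23, Rfx2 -0.51, Adamtsl4 -0.40, Gbx2 -0.08, Nog -0.32, Ptf1a -0.46, Tecta -0.07 and Trh -0.06. With the mean of all tested probes of a gene, an alternative chosen after seeing the data, Cdh5 was 0.17, Cyp51 0.19 and Hoxa3 0.98. Of 288 named and called genes 240 kept their direction and call in every leave-out and 135 in every other setting. Among named and called genes 178 were well above background in the knockout alone and 143 in wild type alone, so for these the signal gives a bound.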
